A study of Mus musculus with 6 samples.

Results

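Dock3 and its closest relatives were followed in mouse skeletal muscle: the DOCK-A genes Dock1, Dock2 and Dock5, the DOCK-B genes Dock3 and Dock4, and the ELMO genes Elmo1, Elmo2 and Elmo3. These 8 genes were taken by name from the 54393 Ensembl genes of the deposited table, with symbols from GENCODE M21. The tissue was adult tibialis anterior, the shin muscle that lifts the foot. The study holds 3 muscles of wild-type genotype (WT), numbered 1, 3 and 4, and 3 of the genotype Dock3 KO, numbered 1, 2 and 3. The labels give no agent or treatment in either group. The titles of the WT samples begin with C57. The Dock3 allele, the strain background of the Dock3 KO mice, the sex and the exact age are not given in the sources used here. A difference between the genotypes therefore cannot be told apart from a difference in strain background. The labels count muscles rather than animals, so p-values measure the spread between these muscles.

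DOCK proteins switch on small GTPases by exchanging GDP for GTP. Members of DOCK-A and DOCK-B act mainly on Rac, and they share an SH3 domain at the start of the protein that binds the carboxy-terminal part of an ELMO protein. ELMO binding relieves inhibition of the DOCK protein and ties it to upstream signals such as active RhoG or the receptor Adgrb1. In the muscle lineage, Dock1 and ELMO proteins are known for their part in the fusion of myoblasts, and Dock2 is known as the Rac activator of leukocytes. Dock3 and Dock4 form the DOCK-B pair, and Dock3 is best known from neurons, where it regulates actin during axon outgrowth.

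Dock3 and Dock4 are the nearest pair by subfamily, so their sequences show how far reads of one could be taken for the other. The coding sequences of Dock3 (6093 bases) and Dock4 (5937 bases) were 67.1% identical over 5763 aligned bases of GENCODE M21 transcripts. That was close to the 67.9% of Dock1 and Dock2 and the 68.9% of Dock1 and Dock5, whereas Dock3 was 61.3% to 61.8% identical to the 3 DOCK-A genes. The longest stretch without a mismatch between Dock3 and any of the other 7 members was 21 bases long and was shared with Dock4. It is shown in capitals within 15 flanking bases on either side, from base 3589 to 3639 of the Dock3 coding sequence and from base 3502 to 3552 of that of Dock4, 5′ to 3′ on the coding strand.
Dock3: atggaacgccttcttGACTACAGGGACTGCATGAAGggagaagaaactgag
Dock4: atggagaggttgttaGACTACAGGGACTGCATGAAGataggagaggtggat
No window of 31 bases was shared between the transcripts of any of the 8 members. Windows shared with genes outside the family made up 0% of the windows of Dock1 and 7.5% of those of Dock3. For Dock3, 1024 of its 1088 shared windows were in 4930524O07Rik, a non-coding gene on the other strand at its 3′ end, which was listed between 1.18 and 10.4 normalized counts in the 6 muscles.

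The table holds normalized counts, a unit that puts the muscles on a common scale. Their sums ran from 23520223 to 33393950. The most frequent low value, taken as an approximate worth of 1 counted read pair, was 0.77 to 1.52. That gives approximately 21700000 to 32700000 counted read pairs per muscle. The figure is rough, as only 22.2% to 31.2% of low values were whole multiples of the most frequent one. Gm42418 and Lars2 together held 17.9% and 20.3% of the sums of Dock3 KO replicates 1 and 2 and 3.00% to 3.64% in the other 4 muscles. Fibre genes of the tibialis anterior such as Acta1 and Ckm summed to between 1657800 and 1836080 normalized counts in every muscle, so the labelled tissue carries its defining markers. A change was called at an adjusted p under 0.05 in limma, on log2(normalized count + 1), over the 16031 genes with a mean of at least 10. All 8 members passed that filter. Of all genes tested, 1.03% were called, 0.586% as lower and 0.443% as higher in Dock3 KO. Values of the genotypes did not overlap for 16.2% of genes, and for 8.65% every Dock3 KO value was the lower one.

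Of the 8 members, 1 passed the test, Dock3, against 1.03% of all genes, and the other 7 did not. As the gene named in the genotype, Dock3 serves here as a check of the labels. Dock3 (ENSMUSG00000039716, chromosome 9, 106892825 to 107231909, minus strand, GRCm38) measured 169, 161 and 118 normalized counts in WT replicates 1, 3, 4, in that order. Dock3 KO replicates 1, 2, 3 gave 22.4, 1.78 and 1.54. All Dock3 KO muscles lay below all WT muscles, and replicate 1 stood far above the other two, at 14.98% of the WT mean against 1.19% and 1.03%. The most frequent low values of replicates 2 and 3 were 1.52 and 0.77, so their Dock3 values stand near the bottom of the scale. The worth of 1 counted read pair may differ between genes. On the log2 scale this was a difference of -4.76 (standard error 0.752, limma, Benjamini-Hochberg adjusted p = 0.0140), the 27th lowest of 16031 genes. An exact two-sided permutation test gave 0.1, which is the smallest p that 3 against 3 samples allow.

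The remainder in Dock3 KO replicate 1 was set beside other genes that are high in WT and nearly absent from the other Dock3 KO muscles. There were 14 such genes, with at least 100 normalized counts in every WT muscle and at most 2% of the WT mean in Dock3 KO replicates 2 and 3. In Dock3 KO replicate 1, 7 of the 14 were listed at 0, and the highest, Gm10184, stood at 2.42% of its WT mean. That lies below the share of Dock3 in the same muscle, but genes with lower WT values were not among the 14. Gm43108, with 0 in Dock3 KO replicates 2 and 3, stood at 23.9% of its WT mean in replicate 1. That gene was picked for its likeness to Dock3 over the 6 muscles, so its remainder in replicate 1 is not an independent comparison. No gene listed over Dock3 on either strand had a mean of 10 or more. Dock3 missed the threshold when WT replicate 1, 3 or 4 was left out (adjusted p = 0.0746, 0.0749 and 0.0691), without Dock3 KO replicate 2 or 3 (0.0876 and 0.0611), with a prior variance that ignores mean expression (0.123), and with log2 Gm42418 as a covariate (0.0836, all limma with Benjamini-Hochberg adjustment). The difference stayed between -5.94 and -3.27 in all 19 alternatives.

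**Figure D1:**
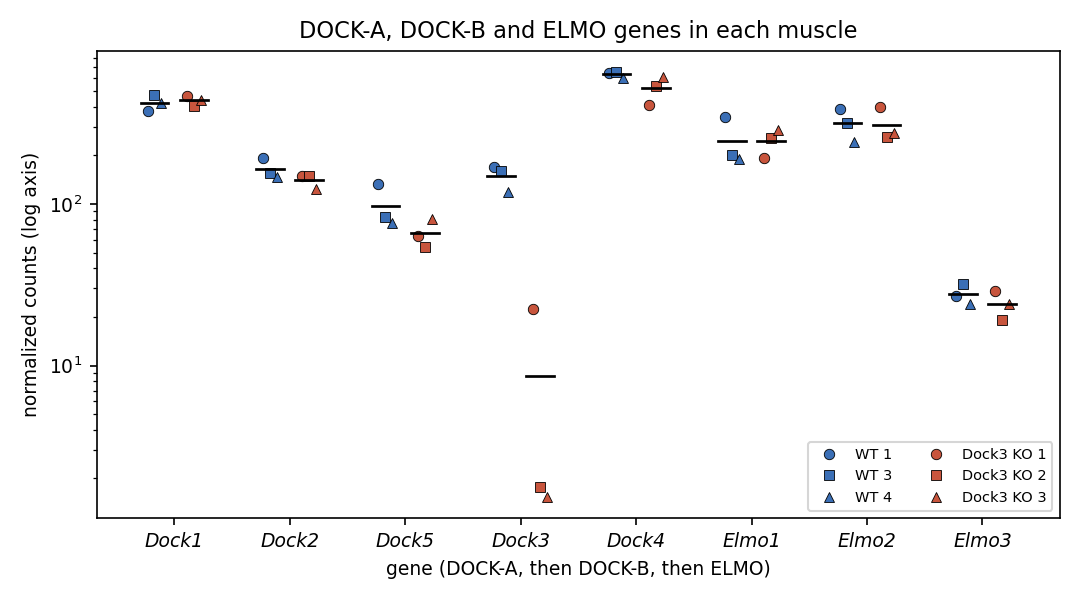
Normalized counts (log axis) of the 3 DOCK-A, 2 DOCK-B and 3 ELMO genes in each muscle, with WT in blue and Dock3 KO in red, symbols for replicates and bars for group means. Dock3 is the gene whose groups lie apart, at 118 to 169 against 1.54 to 22.4, and the groups overlap for the other 7.

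Dock4, the DOCK-B partner of Dock3 and also an activator of Rac (ENSMUSG00000035954, chromosome 12, 40445952 to 40846874, plus strand), measured 647, 657 and 604 normalized counts in WT replicates 1, 3, 4, in that order. Dock3 KO replicates 1, 2, 3 gave 409, 539 and 610. The WT values were tight, whereas those of Dock3 KO spread, with replicate 3 inside the WT range and the other two below it. Its log2 difference of -0.31 had a 95% interval from -0.69 to 0.07 (limma adjusted p = 0.587), which corresponds to 0.622 to 1.05 times the WT level. The lowest values were those of Dock3 KO replicates 1 and 2, the muscles with the high share of Gm42418 and Lars2. The difference was -0.15 without Dock3 KO replicate 1, -0.06 without both, and -0.04 with log2 Gm42418 as a covariate. Without both, only 1 Dock3 KO muscle remains, and with the covariate the 95% interval ran from -0.58 to 0.50. The high share occurred only in Dock3 KO muscles, so the covariate is tied to genotype, and its part in Dock4 was not tested. The Dock4 difference was -0.35 without Dock3 KO replicate 2 alone, -0.44 without replicate 3, and -0.59 with every muscle rescaled to the same total.

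Dock1 is the broadly expressed founder of DOCK-A, the mammalian counterpart of a fly gene required for myoblast fusion. It lies on chromosome 7 (ENSMUSG00000058325, 134670654 to 135173639, plus strand). It measured 376, 470 and 421 normalized counts in the WT muscles and 468, 405 and 443 in the Dock3 KO muscles. The groups covered the same range. Its log2 difference of 0.06 had a 95% interval from -0.28 to 0.40 (limma adjusted p = 0.944), or 0.826 to 1.32 times the WT level.

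Dock5, a DOCK-A gene known from osteoclasts and mast cells (ENSMUSG00000044447, chromosome 14, 67752135 to 67933442, minus strand), measured 133, 83.6 and 76.2 normalized counts in the WT muscles and 63.4, 54.6 and 80.9 in the Dock3 KO muscles. WT replicate 1 was well above the other 5 muscles, and Dock3 KO replicate 3 lay inside the WT range. Its log2 difference of -0.53 had a 95% interval from -1.17 to 0.12 (limma adjusted p = 0.593). Without WT replicate 1 it was -0.28, and over all 19 alternatives it ran from -0.80 to -0.22. The Dock3 KO mean was 67.9% of the WT mean.

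Dock2 (ENSMUSG00000020143, chromosome 11, 34226815 to 34783892, minus strand) measured 192, 156 and 147 normalized counts in the WT muscles and 148, 150 and 123 in the Dock3 KO muscles. Dock3 KO replicate 3 was the lowest muscle, and the other two lay at the bottom of the WT range. The log2 difference was -0.23 with a 95% interval from -0.67 to 0.22 (limma adjusted p = 0.771). Because Dock2 is a leukocyte gene, the leukocyte markers are given beside it. None of the 9 leukocyte markers tested passed the test, but all 9 had a log2 difference below 0, with a median of -0.26 against -0.01 over all genes. The genotypes overlapped for each of the 9. The sum over all 10 listed leukocyte genes was 2520, 2429 and 2378 normalized counts in WT replicates 1, 3, 4. Dock3 KO replicates 1, 2, 3 gave 2229, 1613 and 2171. In WT the muscles had the same order for this sum and for Dock2. In Dock3 KO, replicate 2 had the lowest sum but the highest Dock2, and replicate 3 the lowest Dock2. A large part of that sum was Csf1r, at 966 to 1429 in WT and 686 to 1096 in Dock3 KO. The marker Cd3e of T cells, which was not tested, was listed at no more than 6.32. The part of leukocytes in the Dock2 values was not tested, and in a whole muscle fewer leukocytes and less RNA per leukocyte cannot be told apart.

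Within the span of Dock2, on the other strand, lies Fam196b (ENSMUSG00000069911, chromosome 11, 34314822 to 34422640), now also called Insyn2b and related to a protein of inhibitory synapses. It measured 194, 140 and 210 normalized counts in the WT muscles and 42.8, 56.9 and 49.98 in the Dock3 KO muscles. The groups were far apart, and the Dock3 KO muscles were close to each other. Fam196b fell, with a log2 difference of -1.83 and a standard error of 0.245 (limma, Benjamini-Hochberg adjusted p = 0.00508), to 27.5% of the WT mean. It shared no window of 31 bases with Dock2 transcripts, whose only shared windows were with 4930403D09Rik, listed at 0 in all 6 muscles. The use of strand in counting is not given in the sources used here. Fam196b stayed past the threshold without any 1 muscle, but not with log2 Gm42418 as a covariate (-1.85, adjusted p = 0.164) nor without both Dock3 KO replicates 1 and 2 (-1.82, adjusted p = 0.179, limma), a fit in which 1 Dock3 KO muscle is assumed to vary like the WT muscles. The only other gene over a member with a mean of at least 10 was Gm45532 within Dock1, on the same strand, with a log2 difference of 0.70 (limma adjusted p = 0.719).

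**Figure D2:**
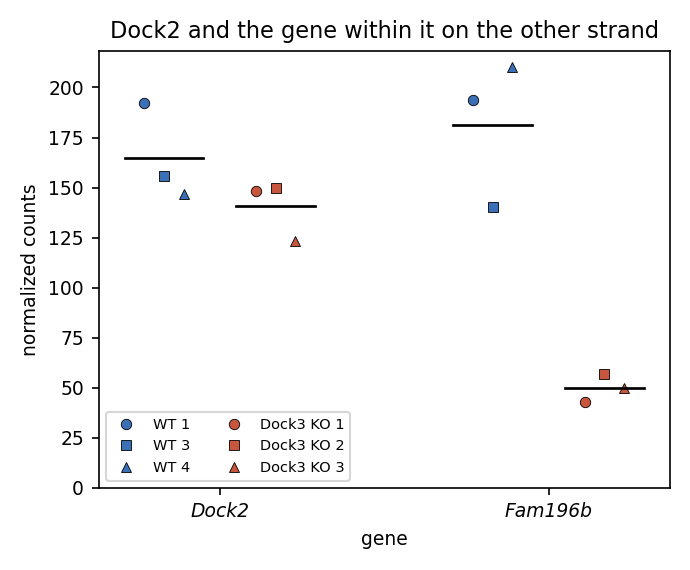
Normalized counts (linear axis from 0) of Dock2 and of Fam196b, which lies within Dock2 on the other strand, with bars for group means. The Dock2 groups overlap, and the Fam196b groups lie at 140 to 210 in WT and 42.8 to 56.9 in Dock3 KO.

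The ELMO genes encode the adaptors that the DOCK proteins share. Elmo1 (ENSMUSG00000041112, chromosome 13, 20090596 to 20608353, plus strand) measured 343, 201 and 191 normalized counts in the WT muscles and 192, 254 and 289 in the Dock3 KO muscles. WT replicate 1 was the highest muscle, and all Dock3 KO values lay within the WT range. The log2 difference was 0.03 with a 95% interval from -0.54 to 0.60 (limma adjusted p = 0.985), and its sign turned in 6 of 19 alternatives.

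Elmo2, the widely expressed ELMO gene (ENSMUSG00000017670, chromosome 2, 165288031 to 165326479, minus strand), measured 388, 318 and 243 normalized counts in the WT muscles and 397, 260 and 273 in the Dock3 KO muscles. In both groups replicate 1 was the highest. The log2 difference was -0.03 with a 95% interval from -0.53 to 0.47 (limma adjusted p = 0.985). Elmo3 (ENSMUSG00000014791, chromosome 8, 105305601 to 105310760, plus strand) measured 27.0, 32.04 and 23.9 in the WT muscles and 28.8, 19.2 and 23.9 in the Dock3 KO muscles. Its log2 difference of -0.21 had a 95% interval from -1.03 to 0.61 (limma adjusted p = 0.914). With a prior variance that ignores mean expression the interval was narrower, from -0.71 to 0.29.

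**Figure D3:**
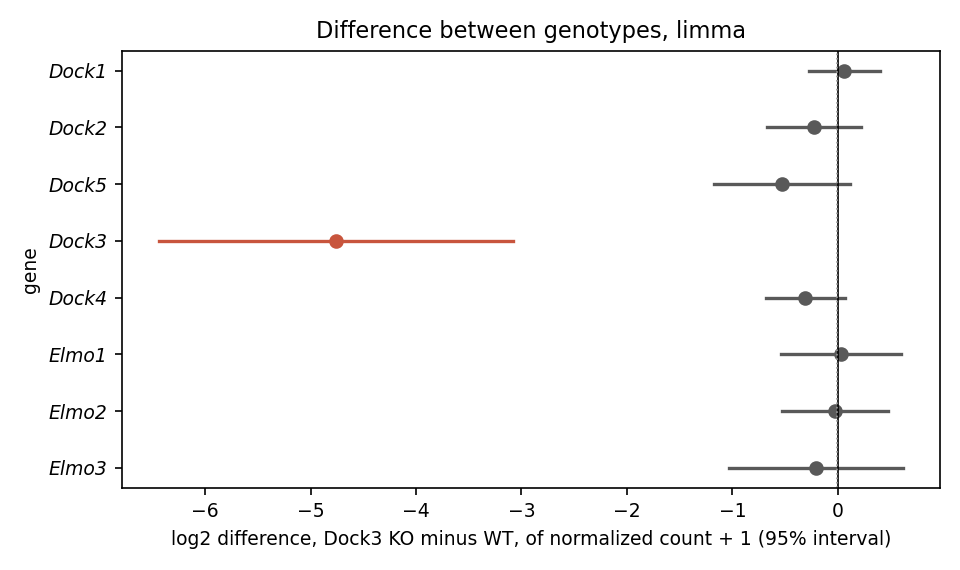
Log2 difference between Dock3 KO and WT of normalized count + 1 for each gene, with its 95% interval from limma; red marks an adjusted p under 0.05 and the dotted line is the median of all genes tested. The interval of Dock3 runs from -6.44 to -3.08, and those of the other 7 genes contain 0.

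Set side by side, 6 of the 8 members had a log2 difference below 0, compared with 50.99% of all genes tested. Their median was -0.22, or -0.21 without Dock3, against -0.01 over all genes. The genotypes did not overlap for 1 of the 8, against 16.2% of all genes. That 1 was Dock3, which is also among the 6 below 0. As the gene named in the genotype, its place in both counts checks the labels and says nothing of its relatives. The 5 members highest in WT replicate 1 among the WT muscles were Dock2, Dock3, Dock5, Elmo1 and Elmo2, and WT replicate 4 was the lowest WT muscle for 7 of the 8.

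Levels of different genes were compared per kilobase of mean transcript length. In WT the order among the DOCK genes was Dock4 at 178 ± 7.93, Dock1 at 127 ± 14.2, Dock3 at 70.7 ± 13.0, Dock2 at 50.9 ± 7.48 and Dock5 at 18.6 ± 5.90 normalized counts per kilobase (SD, n = 3 each). The WT ranges of Dock3 and Dock2 overlapped, and those of the other neighbours did not. With the longest transcript or the union of exons as the length, Dock3 came after Dock2, in the 4th place, and with the union of exons Dock1 came before Dock4, so the order of these pairs depends on the length used. Among the ELMO genes Elmo2 stood at 161 ± 36.7, Elmo1 at 104 ± 36.1 and Elmo3 at 15.2 ± 2.26 (SD, n = 3 each). The ranges of Elmo2 and Elmo1 overlapped, and the order was the same with each length.

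Dock3 thus made up a minor part of the ELMO-binding DOCK transcripts of WT muscle, at 13.6% to 17.4% of the summed level per kilobase of the 5 DOCK genes. With the longest transcript as the length it was 7.41% to 9.68%. In Dock3 KO it was 0.203% to 3.27%. The other 4 genes together reached 380, 390 and 356 normalized counts per kilobase in the WT muscles and 314, 330 and 358 in the Dock3 KO muscles. Dock3 KO replicate 3 lay within the WT range and the other two below it, so no Dock3 KO muscle exceeded the WT range. The Dock3 KO mean was 89.1% of the WT mean, and 74.5% when every muscle was rescaled to the same total. The sum of all 5 DOCK genes was 412 to 466 in WT and 324 to 359 in Dock3 KO. Within it Dock4 took 39.5% to 41.1% in WT and 35.3% to 47.7% in Dock3 KO, so the Dock3 KO range spanned that of WT. Dock1 took 24.7% to 30.8% in WT and 36.98% to 43.5% in Dock3 KO, of a sum from which the Dock3 part was nearly gone.

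**Figure D4:**
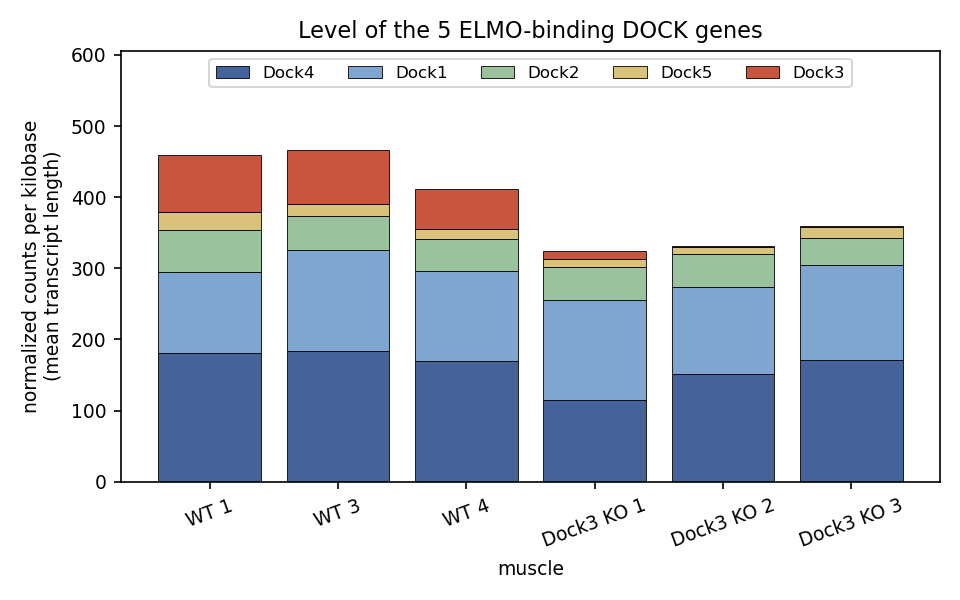
Stacked level of the 5 ELMO-binding DOCK genes in each muscle, in normalized counts per kilobase of mean transcript length. Dock4 and Dock1 form the bulk in every muscle, the Dock3 part is small in WT and nearly gone in Dock3 KO, and the remaining 4 genes reach 356 to 390 in WT and 314 to 358 in Dock3 KO.

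The genes around the ELMO and DOCK proteins were described with 8 lists that hold 62 genes, of which 59 were tested. None of the 59 passed the limma test in either direction, where 1.03% of all genes were called. At an unadjusted p under 0.05 there were 7 of the 59 (11.9%), near the 10.5% of all genes tested. The genotypes did not overlap for 20.3% of the 59, against 16.2% of all genes, and their median log2 difference was 0.05. Among the Rac and RhoG GTPases, the substrates and upstream switch of the complex, which were listed together with Cdc42, 0 of 5 passed. Rac1, the main Rac of most tissues, measured 2694, 2995 and 2922 normalized counts in the WT muscles and 3090, 3011 and 3437 in the Dock3 KO muscles, without overlap (log2 difference 0.15, limma adjusted p = 0.748). Rac3, which had the smallest p of that list, measured 28.7, 27.4 and 25.4 in the WT muscles and 23.0, 10.03 and 14.4 in the Dock3 KO muscles (limma adjusted p = 0.578).

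Another list was drawn up for signals upstream of ELMO, and the tie of its genes to ELMO was not tested. Its gene Stab2, a receptor for phosphatidylserine that is known from sinusoidal endothelium, came closest to the threshold. It measured 224, 209 and 143 normalized counts in the WT muscles and 103, 88.4 and 85.4 in the Dock3 KO muscles. The groups did not overlap, with a log2 difference of -1.03 (limma adjusted p = 0.0859), and it was called when muscles were rescaled to the same total. The 6 endothelial markers had 0 called and summed to 3987 to 5513 in WT and 3996 to 4912 in Dock3 KO, so that sum overlapped. They were listed for endothelium in general, so the sum does not show the level of a subset such as sinusoidal endothelium. Adgrb1, an adhesion receptor that binds ELMO, measured 54.9, 2.05 and 7.52 in the WT muscles and 7.08, 0 and 1.01 in the Dock3 KO muscles, where WT replicate 1 alone was high (limma adjusted p = 0.609).

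In the scaffold list, which holds the Crk adaptors and p130Cas, 0 of 9 passed, and Bcar1, the gene of p130Cas, had the smallest p. It measured 255.7, 222 and 237 normalized counts in the WT muscles and 175, 160 and 195 in the Dock3 KO muscles (log2 difference -0.43, limma adjusted p = 0.399). Of the WAVE complex, which links Rac to branched actin, 0 of 11 passed, with Abi1 at a log2 difference of -0.38 (limma adjusted p = 0.509). Of the PAK kinases, effectors of Rac, 0 of 4 tested passed. Pak1 measured 281, 240 and 325 in the WT muscles and 493, 392 and 379 in the Dock3 KO muscles, without overlap (log2 difference 0.58, limma adjusted p = 0.244).

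Exchange factors that do not bind ELMO were read for comparison. Of the 6 DOCK-C and DOCK-D genes 0 passed, and Dock9, an activator of Cdc42, had the smallest p. It measured 1029, 1355 and 1120 normalized counts in the WT muscles and 823, 779 and 906 in the Dock3 KO muscles, without overlap (log2 difference -0.47, limma adjusted p = 0.235). Of 16 other Rac exchange factors 0 passed, with Farp1 at 0.48 on the log2 scale (limma adjusted p = 0.375). In the ELMO domain family, 0 of 2 tested passed, with Elmod3 at 0.16 (limma adjusted p = 0.858).

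**Figure D5:**
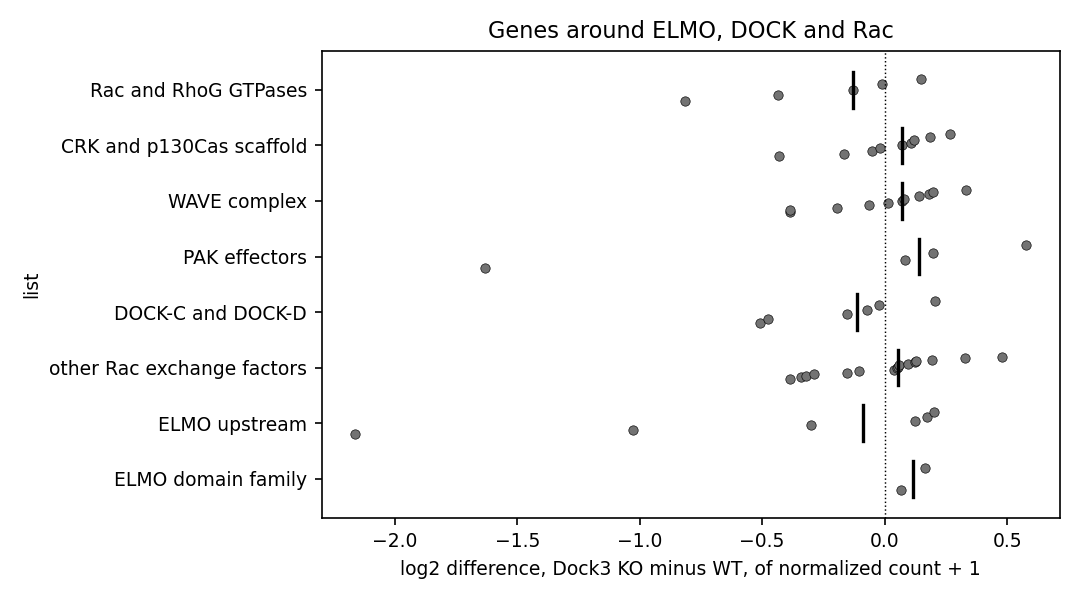
Log2 difference between Dock3 KO and WT of normalized count + 1 for each of the 59 tested genes of the 8 lists, 1 point per gene and a bar at each list's median. List medians lie between -0.13 and 0.14, and no point is past the threshold.

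The genes whose pattern over the 6 muscles was most like that of Dock3 were found from the root mean square difference of their log2 values after subtracting the WT mean. Over 16030 genes the median of that difference from Dock3 was 3.54. The nearest was Gm43108 on chromosome 3, an unconfirmed gene, at 0.36. It measured 52.3, 58.1 and 60.8 normalized counts in the WT muscles and 13.6, 0 and 0 in the Dock3 KO muscles. Its higher value in Dock3 KO replicate 1 is part of the likeness by which it was picked. The next were Tma7-ps at 0.82, AC170187.1 at 0.83, Eif3s6-ps2 at 0.87 and Gm5828 at 0.90, all 4 annotated as processed pseudogenes and none of them on chromosome 9. Of these 5 genes Eif3s6-ps2 was past the threshold (limma adjusted p = 0.00429).

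Marker lists for other cells of the muscle had 59 genes tested, of which 2 were called higher, Col1a1 and Col3a1 of the fibroblast list, and 1 lower, Krt18 of the epithelium list. In that list Epcam was listed at 0 in all 6 muscles, and its other 2 genes had means under 10 and were not tested. Krt8 measured 4.44, 3.26 and 3.34 normalized counts in the WT muscles and 0 in each Dock3 KO muscle. Cdh1 had the higher mean in Dock3 KO, with 10.9, 6.73 and 3.35 in the WT muscles and 11.3, 5.27 and 19.9 in the Dock3 KO muscles. None of the slow fibre, leukocyte, endothelium, Schwann cell and nerve, adipocyte, satellite cell or erythrocyte markers was called, nor were the muscle fibre markers. Of the 6 fibroblast genes 3 had a log2 difference below 0, Dcn at -0.28, Lum at -0.48 and Gsn at -0.06, and its median was 0.05. The medians of the lists with no gene called ran from -0.32 for satellite cells to 0.63 for erythrocytes.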

How the data were processed

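Stranded, paired-end RNA sequencing followed ribosomal depletion of total RNA from 6 tibialis anterior muscles, per the labels' protocols. The deposited data are 1 table, treated as a signal (a normalized count) per gene. Per the submitters' processing notes, Trim Galore 0.4.5, Salmon 0.12.0, DESeq2 1.22.1 and the builds mm10 and GRCm38 were used, with roles and settings not given in the sources used here. Only 22.2% to 31.2% of low values were whole multiples (within 0.02) of the most frequent low value. Whole counts of read pairs were therefore not recovered and no count model was run.

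Values were taken as log2(normalized count + 1), which understates changes of low genes. Genes with a mean of at least 10 were tested in R 4.3.3 with limma 3.58.1, using eBayes with a mean-variance trend and p-values Benjamini-Hochberg adjusted over all genes tested, after a test on simulated data. Permutations, windows and alignments were run in Python 3.11.15. Sequences, lengths and positions are those of GENCODE M21 (GRCm38).

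The members and lists were chosen with earlier results of these data known. Named are the members, list genes past the threshold or with the smallest p of their list, the 5 genes most like Dock3, and genes over a member with a mean of at least 10. Rac1, Adgrb1, Cd3e, Col1a1, Col3a1, Dcn, Lum, Gsn, Krt18, Krt8, Cdh1, Acta1, Ckm, Epcam, Gm10184, Gm42418, Lars2, 4930524O07Rik and 4930403D09Rik were named after their values were seen. The list gene Pak5 was matched to Pak7 through RefSeq synonyms. Alternatives were pseudocounts, filters, scalings (TMM was written for these values), prior variances, a replicate block, a covariate, gene types, gene lengths and left-out muscles.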

Additional observations from a re-analysis of the deposited data

How the results depend on the processing

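The 165 called genes became 104 with a prior variance without trend, 57 with log2 Gm42418 as a covariate, 104 with protein-coding genes only, 49 without both Dock3 KO replicates 1 and 2, and 98 to 159 when 1 muscle was left out. Rescaling to the same total shifted the median of all genes by -0.27 on the log2 scale and changed the split from 71 higher and 94 lower to 41 and 136. The 1 member called became 0 with a prior variance without trend (Dock3 at -4.76) and with the covariate (Dock3 at -5.94), and 0 to 1 with 1 muscle left out, where Dock3 ranged from -5.81 to -4.21. List genes called rose from 0 to 1 (Stab2) when rescaled. Markers called fell from 3 to 1 when rescaled, without trend and with the replicate block, to 0 with the covariate and without both Dock3 KO replicates, and to 0 to 3 with 1 muscle left out. The 4 DOCK relatives stood at 74.5% of WT when rescaled, against 89.1%, and at 85.8% to 91.8% with 1 muscle left out. Dock3 ranked 4 rather than 3 with the longest transcript and with the union of exons.

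Signs turned for members that were not called: Dock1 at -0.22 when rescaled and from -0.021 to 0.14 with 1 muscle left out (the former without WT replicate 1); Elmo1 at -0.24 when rescaled, -0.16 with the replicate block, and from -0.12 to 0.30 with 1 muscle left out (below 0 without WT replicate 3 or 4 or Dock3 KO replicate 2 or 3); Elmo2 at 0.13, 0.08 and 0.05 without WT replicate 1, Dock3 KO replicate 2 and Dock3 KO replicate 3. Relative to the median of all genes, each of the 8 members had the same sign as deposited, rescaled, quantile normalized and with TMM factors. The deviations of same-numbered muscles from their group means had correlations across genes of 0.065 for number 1 and 0.0066 for number 3. No other number occurs in both genotypes, so this cannot settle whether the numbers pair the muscles. In the replicate block, WT replicate 4 and Dock3 KO replicate 2 have no partner and add nothing to the difference. The fit then leaves 1 residual degree of freedom. With this block 127 genes were called, Dock3 stood at -4.43, and no call of a member changed. The cause of these shifts was not tested. What depth limits was not tested.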
